A study of Mus musculus with 6 samples.

Results

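The NFAT and calcineurin genes were followed in bone marrow-derived macrophages (BMMs), the precursors that become osteoclasts, with and without rGDF11. The set was 10 genes chosen by symbol as parts of this pathway, and all 10 had a probe set of their own, out of 19938 such genes on the array. They are the transcription factor genes *Nfatc1*, *Nfatc2*, *Nfatc3*, *Nfatc4* and *Nfat5*, the calcineurin subunit genes *Ppp3ca*, *Ppp3cb*, *Ppp3cc* and *Ppp3r1*, and the calcineurin regulator gene *Rcan1*. The rGDF11 group was BMMs given 100 ng/ml rGDF11 for 24 h, and the vehicle group was BMMs given vehicle for the same time. Both groups also had 100 ng/ml M-CSF, the macrophage growth factor, and 50 ng/ml RANKL, the cytokine that starts osteoclast formation, and both came from the tibiae of 9-week-old mice. Each group had 3 samples that the labels call biological replicates, with 1 Affymetrix array each. No source used here says whether they were of different animals or cultures, so the spread behind each p-value is that of these samples and may be technical. *Nfatc1* was one of the genes the study had itself picked from these arrays.

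Calcineurin is a phosphatase that calcium switches on through calmodulin. It is built from a catalytic subunit, which one of 3 genes encodes, and a calcium-binding regulatory subunit. It strips phosphate from NFAT factors in the cytoplasm, which lets them enter the nucleus. NFATc1 is the factor that osteoclast precursors need to become osteoclasts, and it acts on its own gene. Nfat5 is the outlying member of the family, answers to hypertonic stress and is not controlled by calcineurin.

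Values are log2 intensities after robust multichip averaging (RMA), 1 per probe set and array. Groups were compared with limma, and p-values were adjusted over 23410 probe sets by the Benjamini-Hochberg method. Rose and fell are used of genes with an adjusted p under 0.05. Arrays correlated at 0.997 to 0.998 within a group and at 0.989 to 0.991 between groups, across probe sets, which are not independent. As the labels say, the cells carried macrophage markers: all 8 that were listed lay above the median level of all genes (6.13), with *Csf1r*, the M-CSF receptor, at 12.04 with rGDF11 and 12.12 with vehicle. The markers were not level between groups. With rGDF11, 5 of the 8 fell and 0 rose, *Fcgr1* by 1.41, *Cd14* by 1.06 and *Adgre1* by 0.51 among them. In bulk RNA, fewer cells of a type and less RNA per cell cannot be told apart.

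With rGDF11, 5 of the 10 genes rose and 0 fell, while 5 stayed short of the threshold. The 5 were *Nfatc1*, *Nfatc2*, *Rcan1*, *Nfat5* and *Nfatc3*, so 4 of the 5 factors and the regulator rose, and no calcineurin subunit passed. Factors and subunits are not thereby shown to differ: *Ppp3cc*, which did not pass, had a larger log2 fold change (0.26) than *Nfatc3* (0.23). Among all probe sets tested, 7.31% were higher and 8.64% lower at that adjusted p. At an unadjusted p under 0.05, limma had 8 of the 10 higher and 1 lower, against 13.6% higher and 13.7% lower among all probe sets. The methods' t-test, after adjustment, had 5 of the 10 higher and 0 lower. The threshold of the study's methods, a fold change of 1.5 with an unadjusted p under 0.01, was put here on limma's p, not on the p of the study's own software. At it, 2 of the 10 were higher, *Nfatc1* and *Nfatc2*, and 0 lower, against 2.06% higher and 2.96% lower among all probe sets. The median log2 fold change of the 10 was 0.24, and that of all 19938 genes was 0.03. The rGDF11 arrays all lay above the vehicle arrays for 8 of the 10 genes and all below them for 1, while the groups overlapped for 1. Such separation upward was seen for 16.7% of all genes, and downward for 17.0%. Spread within a group was small, with SDs of 0.03 to 0.13 on the log2 scale over the 10 genes.

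**Figure D1:**
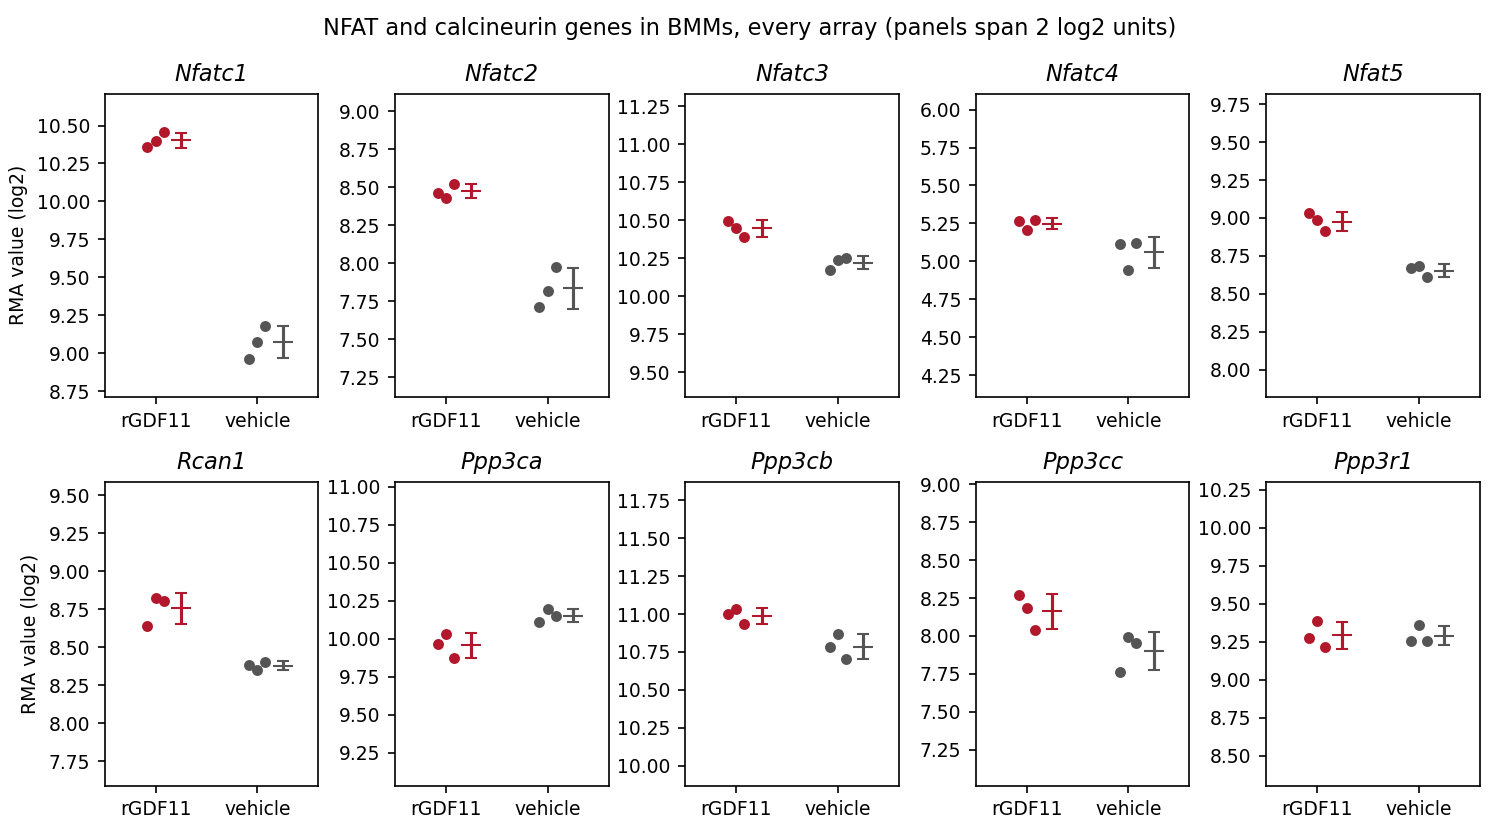
RMA values (log2, vertical axis, each panel spanning 2 units) of the 10 genes in rGDF11 arrays (red, left) and vehicle arrays (grey, right); points are arrays in order of replicate number, bars the mean and SD of 3 arrays. *Nfatc1* is set apart by over 1 unit, *Nfatc2* by a smaller step, and *Ppp3r1* shows the groups at one level, 9.29 in each.

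*Nfatc1* changed most. Its values were 10.36, 10.40 and 10.46 in rGDF11 arrays, against 8.96, 9.08 and 9.18 in vehicle arrays. The lowest rGDF11 array thus stood 1.18 log2 units above the highest vehicle array. The log2 fold change was 1.33 (standard error 0.07), a 2.51-fold rise with a 95% interval of 2.23 to 2.83 (limma, adjusted p = 3.13e-05). Only 71 of the 19938 genes had a larger log2 fold change. With 1 array left out or the values normalized again, the log2 fold change stayed between 1.28 and 1.38. The other alternative settings could not move it, since they leave the group means as they are.

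*Nfatc2* encodes a calcineurin-controlled factor best known from T cells. It read 8.46, 8.43 and 8.52 in rGDF11 arrays, against 7.71, 7.82 and 7.98 in vehicle arrays, and the groups did not overlap. It rose by 0.64 (standard error 0.08), or 1.56-fold with an interval of 1.37 to 1.77 (limma, adjusted p = 0.00141), with 360 genes above it in the order of log2 fold changes. The vehicle arrays were more widely spread (SD 0.13) than the rGDF11 arrays (SD 0.05).

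*Nfatc3* encodes a further calcineurin-controlled factor, and its change was small. Its values were 10.50, 10.45 and 10.39 in rGDF11 arrays and 10.17, 10.24 and 10.25 in vehicle arrays. The log2 fold change was 0.23 (standard error 0.06), or 1.17-fold (limma, adjusted p = 0.0471). This call lay at the threshold and was lost in 12 of 17 alternative settings, where adjusted p reached 0.162, among them each setting that left out 1 array. The 12 include stricter thresholds put on the same fit, which a 1.17-fold change at this adjusted p had to miss. *Nfatc4*, the fourth of the calcineurin-controlled factors, had a signal below the median of all genes in both groups, and the table holds no detection calls. It read 5.27, 5.21 and 5.27 in rGDF11 arrays, against 5.12, 4.94 and 5.12 in vehicle arrays (log2 fold change 0.19; limma, adjusted p = 0.131). Its groups were separated by a gap of 0.09, and the 95% interval ran from 1.02-fold to 1.28-fold.

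*Nfat5* read 9.03, 8.99 and 8.91 in rGDF11 arrays, against 8.67, 8.68 and 8.61 in vehicle arrays. Every rGDF11 array was higher, and the rise of 0.32 (standard error 0.06) was 1.25-fold (limma, adjusted p = 0.0115). Without the first rGDF11 replicate the value was 0.30 (adjusted p = 0.0529).

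The change of *Nfatc1* was set against that of each other gene array by array, as the log2 value of *Nfatc1* minus that of the other gene. This difference was higher in all 3 rGDF11 arrays than in any vehicle array for each of the 9 genes. The groups of *Nfatc1* itself lay 1.18 log2 units apart, so any gene that changed little would give this order. Its share over all genes was not counted, and the order describes *Nfatc1* rather than the 9. The change of *Nfatc1* exceeded that of *Nfatc2* by 0.69 log2 units and that of *Rcan1* by 0.95. It exceeded that of *Nfatc3* by 1.10 and that of *Ppp3ca* by 1.52. Each of the 9 comparisons gave two-sided p = 0.1 by an exact permutation test over the 6 arrays, the smallest that 3 against 3 allow, and 0.1 after adjustment over the 9.

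**Figure D2:**
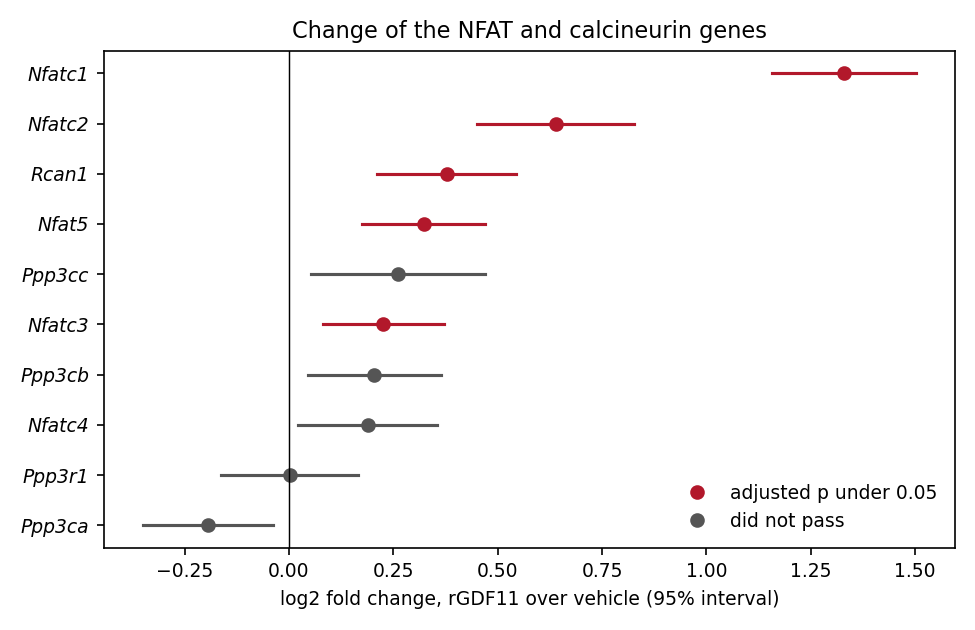
Log2 fold change of the 10 genes (rGDF11 over vehicle, horizontal axis) with 95% intervals from limma, not adjusted for the number of genes (3 arrays each of rGDF11 and vehicle); red marks an adjusted p under 0.05. *Nfatc1* lies at 1.33 and *Nfatc2* at 0.64, and the 4 calcineurin subunit genes lie between −0.19 and 0.26, none in red.

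*Rcan1* encodes a protein that binds calcineurin and restrains it, and a short form of it is itself induced by calcineurin and NFAT, as a feedback. It read 8.64, 8.83 and 8.80 in rGDF11 arrays, against 8.38, 8.35 and 8.41 in vehicle arrays. The vehicle arrays were tightly grouped (SD 0.03) and the rGDF11 arrays all stood above them. The log2 fold change was 0.38 (standard error 0.07), or 1.30-fold with an interval of 1.16 to 1.46 (limma, adjusted p = 0.0098), with 942 genes above it.

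RefSeq places 2 starts of transcription at *Rcan1*, and the array reads the gene through 1 probe set, so transcripts of the 2 starts were not told apart. The 250 bases before each start are printed because the second is the calcineurin-responsive promoter known for the short form. Both are from RefSeq, build GRCm38.p6, minus strand, written 5′ to 3′ along the gene. Capitals mark the core of the NFAT motif, GGAAA or its reverse complement TTTCC, and the AP-1 motif TGACTCA, searched on both strands.
Rcan1 upstream start, chr16:92466170-92466419: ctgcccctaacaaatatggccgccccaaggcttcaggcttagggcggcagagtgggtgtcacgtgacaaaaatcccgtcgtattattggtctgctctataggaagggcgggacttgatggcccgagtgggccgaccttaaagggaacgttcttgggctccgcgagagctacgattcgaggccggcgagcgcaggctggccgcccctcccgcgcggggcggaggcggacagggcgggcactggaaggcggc
Rcan1 internal start, chr16:92400079-92400328: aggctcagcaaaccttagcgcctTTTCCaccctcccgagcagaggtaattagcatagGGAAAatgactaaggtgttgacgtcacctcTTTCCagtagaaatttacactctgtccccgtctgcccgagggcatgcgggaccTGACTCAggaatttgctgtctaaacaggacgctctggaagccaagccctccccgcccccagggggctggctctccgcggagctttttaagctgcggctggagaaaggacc
The window of the upstream start held 0 NFAT cores and 0 AP-1 motifs. The window of the internal start held 3 NFAT cores, at 227, 193 and 163 bases before the start counted to the motif's first base, and 1 AP-1 motif at 110 bases before it. Among 32851 windows of the same length in the table, 55.6% held at least 1 NFAT core, 6.39% at least 3, 4.46% an AP-1 motif, and 0.32% at least 3 cores together with an AP-1 motif. That combination is what the internal window itself holds, so its share is a description and no test of that window.

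*Nfatc2* too has 2 starts in the table. Their windows, on the minus strand of the same build, are printed as those of the factor gene with the second-largest rise.
Nfatc2 upstream start, chr2:168601658-168601907: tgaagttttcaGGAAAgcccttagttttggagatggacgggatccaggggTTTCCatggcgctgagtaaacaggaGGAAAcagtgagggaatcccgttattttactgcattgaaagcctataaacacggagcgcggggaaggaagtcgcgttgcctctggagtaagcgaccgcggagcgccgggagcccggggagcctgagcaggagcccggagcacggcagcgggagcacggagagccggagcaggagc
Nfatc2 internal start, chr2:168590366-168590615: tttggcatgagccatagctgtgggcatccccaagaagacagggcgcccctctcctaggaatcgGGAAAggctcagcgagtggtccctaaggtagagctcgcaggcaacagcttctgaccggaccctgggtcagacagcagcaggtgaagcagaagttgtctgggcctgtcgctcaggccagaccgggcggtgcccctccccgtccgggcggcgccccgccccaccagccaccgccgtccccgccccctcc
The upstream window held 3 NFAT cores and the internal one 1, with 0 AP-1 motifs in either. Of the 10 genes, 7 were found in the table, with 10 windows between them, and *Nfatc1*, *Ppp3ca* and *Ppp3cc* had no window. Of these windows 7 held at least 1 NFAT core, 4 held at least 3, and the AP-1 motif was found in 1, that of the internal start of *Rcan1*. Windows with 3 cores belonged to genes that rose (*Rcan1*, *Nfatc2*) and to genes that did not pass (*Nfatc4*, *Ppp3cb*). Such matches describe the letters only, and binding was not measured on the arrays.

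No calcineurin subunit gene passed the test, and the 3 catalytic subunit genes did not all lean one way. *Ppp3ca*, which encodes the alpha catalytic subunit, read 9.96, 10.03 and 9.87 in rGDF11 arrays, against 10.11, 10.19 and 10.15 in vehicle arrays. Every rGDF11 array lay below every vehicle array, with a log2 fold change of −0.19 (standard error 0.07; limma, adjusted p = 0.101). It was the only one of the 10 genes with this order.

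*Ppp3cb*, the gene of the beta catalytic subunit, read 11.00, 11.03 and 10.93 in rGDF11 arrays, against 10.78, 10.87 and 10.70 in vehicle arrays. The groups were apart by 0.06 in the upward direction (log2 fold change 0.20, standard error 0.07; limma, adjusted p = 0.0906). *Ppp3cc*, the gene of the gamma catalytic subunit, read 8.27, 8.18 and 8.04 in rGDF11 arrays, against 7.76, 7.99 and 7.95 in vehicle arrays. Its groups were apart by 0.05, also upward (log2 fold change 0.26, standard error 0.09; limma, adjusted p = 0.0989). Tested among rows brighter than the median alone, all 3 catalytic subunit genes passed, *Ppp3ca* lower (adjusted p = 0.0293) and *Ppp3cb* and *Ppp3cc* higher (adjusted p = 0.026 and 0.0362). They also passed when limma's prior followed the level of the gene, with adjusted p = 0.0159, 0.00713 and 0.0395.

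*Ppp3r1*, the gene of the regulatory subunit, showed no detectable difference. It read 9.27, 9.39 and 9.22 in rGDF11 arrays, against 9.25, 9.36 and 9.26 in vehicle arrays, and the groups overlapped. The difference was 0.002 on the log2 scale (limma, adjusted p = 0.990), and its 95% interval ran from 10.7% lower to 12.2% higher.

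Around the pathway, 7 lists drawn up from general knowledge were counted, and list members that no probe set reads alone were dropped. Upstream of calcineurin, a list held genes of calcium release, entry and removal, with kinases and an adaptor of immune receptor signalling. It went both ways: of 19, 3 rose, 4 fell and 12 did not pass, with a median log2 fold change of −0.01. Channels that let calcium into the cytoplasm and pumps that remove it are mixed in the list. Its median therefore gives no direction for calcium. *Itpr3*, a channel that releases calcium from the endoplasmic reticulum, rose by 0.60, and *Orai2*, a subunit of store-operated calcium channels, rose by 0.60 (limma, adjusted p = 0.000728 and 0.000473). *Atp2a3*, a pump that returns calcium to the endoplasmic reticulum, fell by 0.82. *Trpv2*, a cation channel, fell by 0.68, and *Blnk*, an adaptor that links immune receptors to phospholipase C-gamma, fell by 0.45 (limma, adjusted p = 0.00024, 0.000311 and 0.00325). *Plcg2*, the phospholipase C-gamma that osteoclast precursors use, had a log2 fold change of −0.01 (adjusted p = 0.961), and *Stim1*, the calcium sensor of store-operated entry, of −0.31 (adjusted p = 0.0655).

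Of 14 genes for calmodulin, immunophilins and calcineurin modulators, 2 rose, 1 fell and 11 did not pass, with a median of 0.02. The 2 were *Rcan3*, a relative of *Rcan1* (0.24; limma, adjusted p = 0.0475), and *Cabin1*, which encodes a calcineurin inhibitor (0.25, adjusted p = 0.0314). Their calls were lost in 13 and 11 of 17 alternative settings. *Myoz1*, which encodes a calcineurin-binding protein of muscle, fell by 0.32 (adjusted p = 0.0126). *Ppia* and *Fkbp1a*, the immunophilin genes whose products carry cyclosporin and FK506 to calcineurin, had log2 fold changes of −0.11 and −0.05 (adjusted p = 0.302 and 0.674).

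A further list held 16 genes of kinases, transport factors and other proteins that act on NFAT or on its passage into and out of the nucleus. Of these, 3 rose, 2 fell and 11 did not pass, with a median of 0.12. *Csnk1e*, a casein kinase 1 gene, rose by 0.74 and *Mapk8*, the gene of the kinase JNK1, by 0.48 (limma, adjusted p = 0.000524 and 0.00148). *Dyrk1b* fell by 0.33 (adjusted p = 0.0096). *Dyrk2* had a log2 fold change of 0.29 and *Iqgap1*, a scaffold protein gene, of −0.24 (adjusted p = 0.0497 and 0.0231), and these calls were lost in 13 and 8 of 17 alternative settings, for *Iqgap1* in each that left out 1 array. *Gsk3b*, the kinase that phosphorylates NFATc1 for export, had a log2 fold change of 0.06 (adjusted p = 0.607), and *Dyrk1a* of 0.14 (adjusted p = 0.203).

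Of 14 genes bound or induced by NFATc1 in osteoclasts, 6 rose, 2 fell and 6 did not pass, with a median of 0.33. The study had already picked *Acp5*, *Ctsk* and *Src* from these arrays, so the count is not independent evidence of a direction. The largest rise was that of *Acp5*, the gene of tartrate-resistant acid phosphatase, by 1.87 (limma, adjusted p = 1.27e-05). *Atp6v0d2*, a proton pump subunit gene needed for fusion, rose by 1.58, and the fusion genes *Ocstamp* and *Dcstamp* rose by 1.09 and 0.63. *Src*, the gene of a kinase of the osteoclast cytoskeleton, rose by 1.07 and *Ctsk*, the gene of the protease cathepsin K, by 0.92. The genes that fell were *Mmp9* (−0.62) and *Clcn7* (−0.51), which encode a gelatinase and a chloride transporter of the resorbing membrane (limma, adjusted p = 0.00376 and 0.00172). *Oscar*, a receptor gene that NFATc1 induces, had a log2 fold change of 0.31 (adjusted p = 0.101), with rGDF11 arrays all above vehicle arrays.

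Of 14 genes that calcineurin and NFAT induce in immune cells, 2 rose, 0 fell and 12 did not pass, with a median of 0.07. At an unadjusted p under 0.05, 5 of the 14 were higher and 0 lower, against 13.6% and 13.7% of all probe sets. The methods' t-test, after adjustment, had 2 higher and 0 lower. *Tnfsf8*, the gene of CD30 ligand, rose by 1.29 and *Ptgs2*, the gene of cyclooxygenase-2, by 0.83 (limma, adjusted p = 1.69e-05 and 0.000111). For 9 of the 14, mean levels were below the median of all genes in both groups, among them *Il2*, the classical NFAT target of T cells, at 3.90 with rGDF11 and 3.87 with vehicle.

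Among 7 genes that Nfat5 induces in hypertonic stress, 1 rose, 2 fell and 4 did not pass, with a median of −0.10. *Slc5a3*, the myo-inositol transporter gene, read 8.63 ± 0.08 in rGDF11 arrays and 9.66 ± 0.08 in vehicle arrays (SD, n = 3 arrays each), a fall of 1.03 (limma, adjusted p = 8.09e-05). *Slc6a12*, the betaine transporter gene, read 9.93 ± 0.32 in rGDF11 arrays and 10.95 ± 0.14 in vehicle arrays (SD, n = 3 arrays each), a fall of 1.02 (limma, adjusted p = 0.00372). The taurine transporter gene *Slc6a6* had a log2 fold change of −0.20 (adjusted p = 0.0534). *Slc14a2*, a urea transporter gene of the kidney, rose by 0.31 (adjusted p = 0.0323) at a level below the median of all genes, and the call was lost in 11 of 16 alternative settings.

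Of 19 factors that act on *Nfatc1* transcription, 8 rose, 2 fell and 9 did not pass, with a median of 0.15. *Fos* among them had been picked from these arrays by the study. The 5 largest rises were those of *Jdp2* (1.43), *Prdm1* (1.37), *Myc* (1.18), *Fosl2* (1.11) and *Fosl1* (0.81). *Jdp2*, *Fosl2* and *Fosl1* encode AP-1 family proteins, *Prdm1* the repressor Blimp1 and *Myc* a growth-related factor. *Fos*, the gene of the AP-1 factor c-Fos that osteoclast formation needs, rose by 0.79. *Jun* rose by 0.31 and *Junb* by 0.36 (limma, adjusted p = 0.0136 and 0.0305), with the call of *Junb* lost in 8 of 17 alternative settings. *Rbpj*, the gene of the nuclear factor of Notch signalling, which restrains osteoclast formation in mice, fell by 0.52 (adjusted p = 0.00102), and *Jund*, of the AP-1 family, fell by 0.47 (0.00652). *Rela*, the NF-κB subunit gene, had a log2 fold change of −0.001 (adjusted p = 0.992), *Bcl6* of 0.15 (adjusted p = 0.278) and *Irf8* of 0.12 (adjusted p = 0.451). *Bcl6* and *Irf8* encode repressors of osteoclast genes.

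**Figure D3:**
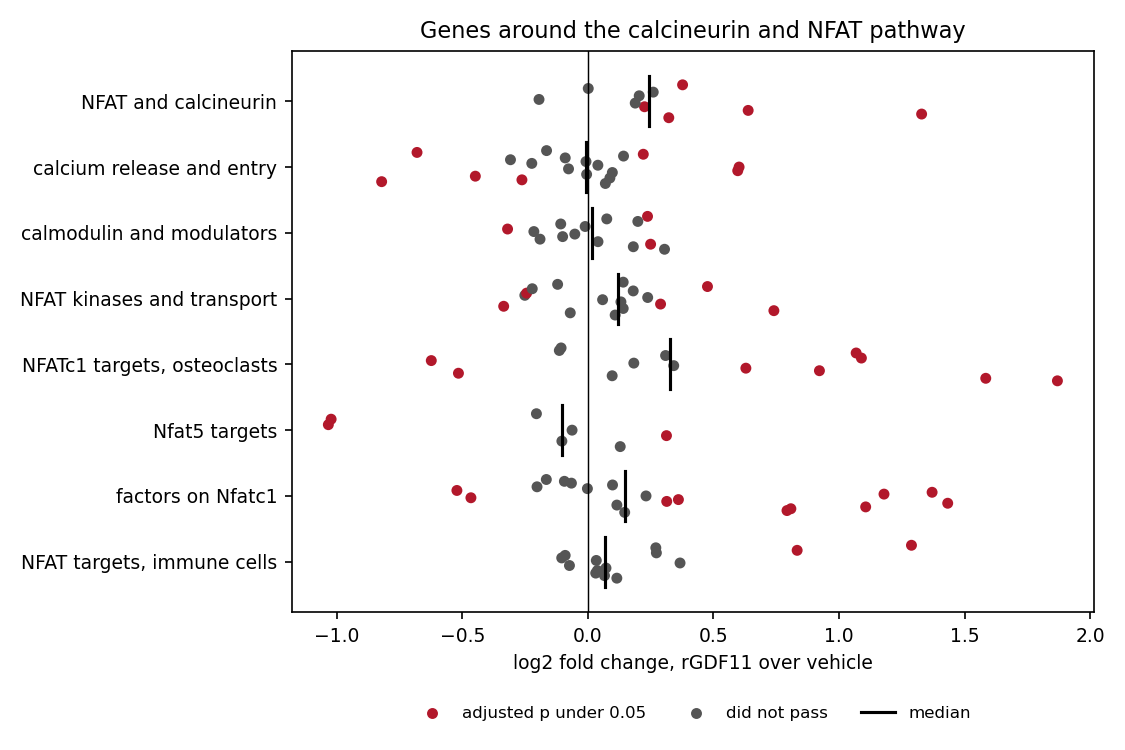
Log2 fold change (rGDF11 over vehicle, horizontal axis) of the 10 genes, top row, and of the 7 lists around them, with 1 point per gene; black lines show medians, and red marks an adjusted p under 0.05 (3 arrays each of rGDF11 and vehicle). The osteoclast targets of NFATc1 reach furthest to the right with a median of 0.33, the calcium genes spread to both sides of 0, and 2 targets of Nfat5 lie at −1.03 and −1.02.

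The genes with a pattern most like that of *Nfatc1* were found by the root mean square difference, over the 6 arrays, of each gene's deviations from its own vehicle mean. The nearest 5 of the other genes were *Cxcr2*, a chemokine receptor gene (0.04 log2 units), *Enc1* (0.05), *Carmil1* (0.06), *Il17ra*, an interleukin-17 receptor gene (0.09), and *Tnfsf8* (0.09). Their log2 fold changes were 1.26 to 1.38. *Cxcr2* read 6.18, 6.26 and 6.32 in rGDF11 arrays, against 4.77, 4.94 and 4.96 in vehicle arrays. Its groups lay 1.22 apart, and those of *Nfatc1* 1.18. Points share the arrays and the treatment, and the 5 genes were picked for a change like that of *Nfatc1*, so the likeness is a description.

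**Figure D4:**
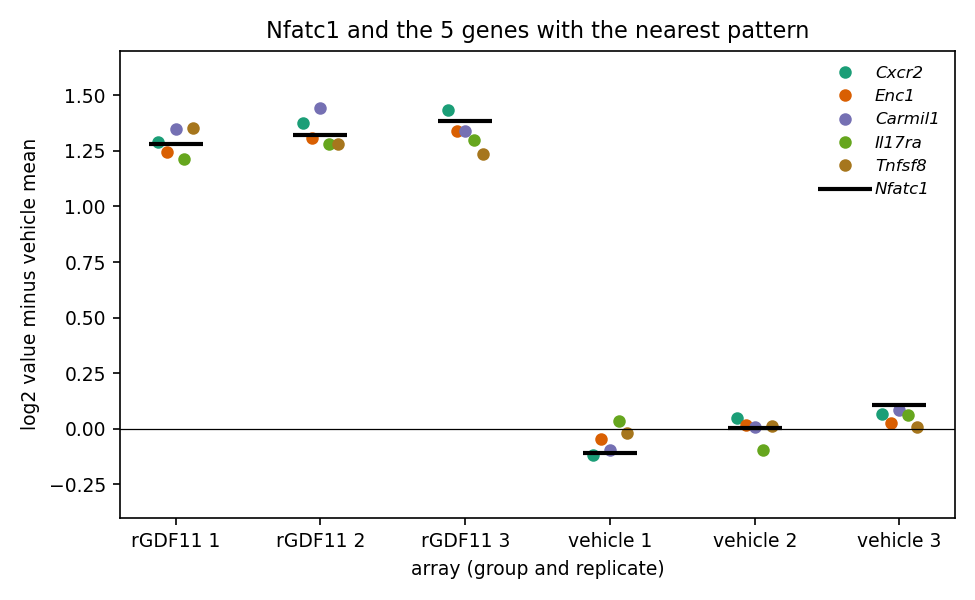
Log2 value minus the vehicle mean (vertical axis) on each of the 6 arrays (horizontal axis) for *Nfatc1* (black bars) and the 5 genes with the nearest pattern (coloured points). All 6 genes lie above 1.2 on rGDF11 arrays and near 0 on vehicle arrays.

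Markers of other cells were followed on the same arrays, since T cells, B cells and mast cells also use NFAT. Of 7 T cell markers, 0 rose and 2 fell, and their mean log2 level was 5.26 to 5.31 over rGDF11 arrays and 5.47 to 5.72 over vehicle arrays. Levels of 6 of the 7 lay below the median of all genes in both groups, the exception being *Cd28*, which fell by 2.23. *Cd4*, the other to fall, did so by 0.25, while *Cd3e*, *Cd3d* and *Cd3g* had log2 fold changes of 0.14, 0.01 and −0.02 and did not pass. The lower mean of the list is thus largely that of *Cd28*. Of 5 B cell markers 0 rose and 1, *Cd79b*, fell by 1.19 (mean level 4.46 to 4.60 with rGDF11 and 4.69 to 4.76 with vehicle). Of 6 mast cell and basophil markers 1 rose, *Gata2* by 0.44 (4.31 to 4.37 with rGDF11 and 4.21 to 4.31 with vehicle). Of 7 neutrophil markers 2 rose, *S100a8* by 0.71, and *Ngp*, at 9.28 with rGDF11 and 8.28 with vehicle (mean level of the list 6.29 to 6.33 with rGDF11 and 5.99 to 6.05 with vehicle). Of 6 stromal and osteoblast markers 3 rose, *Col1a1*, *Col1a2* and *Alpl*, by 0.63, 0.65 and 0.44 (6.32 to 6.45 with rGDF11 and 5.95 to 6.15 with vehicle). Of the 8 macrophage markers 5 fell, *Fcgr1* by 1.41 the furthest (10.84 to 10.92 with rGDF11 and 11.32 to 11.35 with vehicle). At an unadjusted p under 0.05 by limma, 0 T cell, 0 B cell and 0 macrophage markers were higher, and 2 mast cell and basophil, 4 neutrophil and 4 stromal and osteoblast markers were. Lower at that p were 2 T cell, 1 B cell, 5 macrophage and 1 mast cell and basophil markers, and 0 of the other lists. Among all probe sets, 13.6% were higher and 13.7% lower at that p. By the methods' t-test after adjustment, 0 T cell, 0 B cell and 0 macrophage markers were higher, and 1, 2 and 2 of the other lists in that order. The part of these shifts in the rises of *Nfatc1*, *Nfatc2*, *Rcan1*, *Nfat5* and *Nfatc3* was not tested.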

How the data were processed

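The authors hybridised total RNA to Affymetrix Mouse Gene 1.0 ST arrays and made the deposited log2 values by RMA, which already includes background correction, quantile normalization over the arrays and a summary of each probe set, and compresses changes of dim genes. Their methods name Affymetrix Expression Console, with no version in the sources used here, and the submitters' processing notes name Transcriptome Analysis Console 3.0. Of 35556 probe sets, the platform annotation gave 1 symbol to 21789, several to 1621 and none to 12146. All 23410 with any symbol entered limma 3.58.1 under R 4.3.3: a linear model of 3 rGDF11 and 3 vehicle arrays with no covariate, moderated by eBayes, with no trend and two-sided p-values. A gene enters by its brightest probe set with 1 symbol; each of the 10 genes had 1. The fit was checked on simulated data. Named are the 10 genes, up to 5 passing genes per list with the largest change, other members as examples, and the 5 nearest patterns. Members, lists and tests were chosen with earlier results of these data known. The number of arrays limits the precision. The array's files name no genome build, so positions are given only for the RefSeq promoter windows, on GRCm38.p6. Alternatives covered the rows tested, 2 other normalizations, the prior, the methods' t-test (named for comparisons of 2 groups), thresholds, the replicate block and each array left out.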

Additional observations from a re-analysis of the deposited data

How the results depend on the processing

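The rises of *Nfatc1* and *Nfatc2* kept their direction and passed under all 17 alternatives. The count of 5 genes higher was 3 to 4 with 1 array left out, the lowest without the first rGDF11 replicate. It was 3 at an adjusted p under 0.01 and 2 at the methods' threshold. It was 4 over all rows, with equal array medians and with a robust prior, 5 over rows with 1 symbol and by the methods' t-test, and 7 among brighter rows, after another quantile normalization and with a trended prior. In the settings that gave 7, more probe sets were higher in all: 2090, 2016 and 2269 in that order, against 1712 in the main fit. Among brighter rows fewer probe sets were tested, so the share that was higher was larger still. The count of 0 lower was 1, *Ppp3ca*, among brighter rows and with a trended prior, and 0 by the methods' t-test. Over the probe sets tested, 2491 were lower among brighter rows and 2638 with a trended prior, against 2023 in the main fit. By that t-test after adjustment, the immune NFAT genes had 2 higher and 0 lower, the T cell markers 0 higher and 1 lower, and *Slc6a12* no longer passed (adjusted p = 0.0562). *Ppp3r1* changed sign in 4 settings, between −0.05 and 0.04, and passed in 0. Over all probe sets the 1712 higher became 1129 without the first rGDF11 replicate. With 1 array left out, calcium genes were 2 higher and 3 to 4 lower, calmodulin genes and modulators 0 to 1 in either direction, kinases 2 higher and 1 lower, osteoclast targets 6 to 7 higher and 2 lower, Nfat5 targets 0 to 1 higher and 2 lower, and factors on *Nfatc1* 6 to 8 higher and 2 lower. Over all settings, the counts were 0 to 3 higher and 0 to 4 lower for calmodulin genes and modulators, and 1 to 5 higher and 0 to 3 lower for kinases. At an adjusted p under 0.01, 845 probe sets were higher and 1183 lower, and at the methods' threshold 483 and 694.

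No source used here says whether the replicate numbers pair the samples. Same-numbered arrays deviated together at correlations of 0.06, 0.33 and −0.001, and the third rGDF11 replicate correlated best with the first vehicle replicate. Deviations from a group mean are tied to one another within so small a group, so these values cannot settle whether samples were paired. With the replicate number as a block, 4 genes were higher and 0 lower, the call of *Nfatc3* being lost (adjusted p = 0.0845). A mean over several probe sets of a gene could not be run, since each gene had 1.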
